A study of Mus musculus with 9 samples.

Results

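HCN channels and their auxiliary subunit were described in mouse hippocampus by 4 genes, Hcn2 (ENSMUSG00000020331), Hcn3 (ENSMUSG00000028051), Hcn4 (ENSMUSG00000032338) and Pex5l (ENSMUSG00000027674), which were taken by symbol from a table of 57010 genes. All 4 were among the 17967 genes that passed the filter on low counts. Any other gene of the family is not analysed here. The study set 3 groups of C57BL/6J mice side by side, with 3 libraries in each. CBD mice had the L5 spinal nerve ligated and then had intraperitoneal injections of 5 mg/kg cannabidiol, a cannabinoid of the cannabis plant, over 15 days. SNL mice had the same ligation, which models neuropathic pain, and were given solvent. Sham mice had the nerve located but not tied, and solvent. Age is not given in the sources used here, nor is it stated that each library is its own animal, so a p-value speaks only for the spread between these libraries, part of which may be technical.

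HCN channels open when the membrane becomes more negative and let sodium and potassium through, which gives an inward current that sets the resting potential and paces rhythmic firing. Binding of cyclic AMP to a domain at the cytoplasmic end makes them open more readily, most of all in HCN2 and HCN4, and little in HCN3. Pex5l encodes TRIP8b, a brain protein that grips the tail and the cyclic nucleotide-binding domain of HCN channels, steers them to or from the dendritic surface of pyramidal neurons and opposes the action of cyclic AMP. In the brain HCN2 is widespread, HCN4 is found above all in thalamus and medial habenula, and HCN3 is sparse. HCN2 of sensory neurons is known for its part in neuropathic pain in mice.

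The 3 channel genes are paralogs whose transcripts share few exact stretches of 31 bases. Exact stretches do not measure how alike the sequences are as a whole. Hcn2 is on mouse chromosome 10, Hcn4 on 9, and Hcn3 and Pex5l on 3. Among the longest protein-coding transcripts of GENCODE vM21, made on the older build GRCm38, the longest run of bases that any pair of channel genes shared was 33 bases, between Hcn2 and Hcn3. The shared runs lay in the coding regions and are shown because they mark where reads of paralogs could be confused. As background, the run of Hcn2 and Hcn4 lies in the pore region, that of Hcn3 and Hcn4 just after the last membrane segment, and that of Hcn2 and Hcn3 just before the first. They are written here from 5′ to 3′.
Hcn2 and Hcn4 shared run: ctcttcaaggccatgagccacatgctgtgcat
Hcn3 and Hcn4 shared run: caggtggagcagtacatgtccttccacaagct
Hcn2 and Hcn3 shared run: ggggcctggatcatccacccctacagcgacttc
Of all stretches of 31 bases in the Hcn2 transcript, 0.0632% were also in Hcn4 and 0.0948% in Hcn3. Between Hcn2 and Pex5l the longest shared run was 11 bases. In the same annotation Hcn3 overlaps Pklr, a pyruvate kinase gene on the opposite strand, over 711 exonic bases. Pklr itself was given between 0 and 8.03 expected counts per library. Pex5l overlaps the antisense gene Gm37459 over 340 exonic bases, and that gene held between 7 and 22.03 counts. Whether counting used strand is not given in the sources used here, so reads of these opposite-strand pairs may be mixed.

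Promoters were matched for Hcn2 and Hcn4, the 2 of the 4 genes that a RefSeq table of 300-base windows held on build GRCm38.p6. They are shown because the ratio of Hcn4 to Hcn2 was higher in every library of both ligated groups than in every Sham library. By exact permutation its adjusted p was 0.3 in each comparison with Sham, and other quantities given below lay apart in the same way. Each window runs from 250 bases before to 50 bases after the start of transcription, from 5′ to 3′ on the plus strand. Capitals mark the letters GGGCGG on either strand, the core of the GC box bound by Sp1.
Hcn2 promoter, chr10:79716384-79716683: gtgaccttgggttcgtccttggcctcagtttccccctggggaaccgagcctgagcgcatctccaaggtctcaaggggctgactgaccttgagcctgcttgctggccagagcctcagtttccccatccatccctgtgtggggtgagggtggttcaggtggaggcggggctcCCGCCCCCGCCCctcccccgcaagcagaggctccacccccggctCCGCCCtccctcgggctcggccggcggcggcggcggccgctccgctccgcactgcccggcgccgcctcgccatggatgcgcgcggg
Hcn4 promoter, chr9:58822699-58822998: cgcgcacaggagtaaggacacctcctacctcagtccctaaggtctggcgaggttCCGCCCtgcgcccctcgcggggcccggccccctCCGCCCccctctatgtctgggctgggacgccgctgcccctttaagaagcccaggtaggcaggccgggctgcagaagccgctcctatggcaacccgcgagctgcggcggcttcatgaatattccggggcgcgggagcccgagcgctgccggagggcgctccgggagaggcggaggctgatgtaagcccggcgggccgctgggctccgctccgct
The Hcn2 window held 3 such matches and the Hcn4 window 2, none of them overlapping another, while 35.7% of 32851 promoter windows of this length held at least 1. Their GC content was 72.33% for Hcn2 and 71.67% for Hcn4, against a median of 52.67% over all windows. Neither window held CAGCACC, part of the element bound by the repressor REST, on either strand (7.14% of windows did), or TATAAA (13.6%). These letters describe the windows and not which factor is bound.

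The libraries held from 16972620 to 20470546 expected counts, and each pair differed by more than sampling noise (the lowest chi-square per gene was 6.44). Counts were rounded, scaled by TMM, which sets libraries level over the bulk of their genes, and given as CPM, the count of a gene relative to the scaled total of its library. Markers of the hippocampus were present in every library. The summed CPM of 8 CA1 markers ran from 458.1 to 871.9 in CBD, from 466.6 to 744.7 in SNL and from 714.1 to 1141 in Sham. For 10 dentate granule cell markers it ran from 447.2 to 721.4 in CBD, from 420 to 560.9 in SNL and from 556.8 to 844.4 in Sham. Transcripts of neighbouring regions differed between libraries. The summed CPM of 15 thalamus and habenula markers ran from 798.2 to 1069 in CBD, from 824.7 to 1923 in SNL and from 481.6 to 737.4 in Sham. None of these 15 was at 0 in any library. They included Tcf7l2, from 70.4 to 93.2 CPM in CBD, from 79.9 to 159.1 in SNL and from 30.5 to 66.7 in Sham, Lef1 and Ntng1. Some values lay near 0, such as Pou4f1 at 0.051 CPM in Sham 2 and 0.108 CPM in CBD 1. Not all of these markers peaked in the same library: Prkcd was highest in SNL 2 (571.5 CPM), and Pou4f1 in SNL 1 (8.46 CPM). The summed CPM of 10 hypothalamic markers ran from 8.69 to 405.1 in CBD, from 12.4 to 318.8 in SNL and from 8.57 to 11.2 in Sham. CBD 1, SNL 1 and SNL 2 held the 3 highest of these sums, with the neuropeptide gene Pmch at 145.7, 200.4 and 43.9 CPM.

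Per kilobase of the longest protein-coding transcript, Hcn2 and Pex5l were the abundant members and Hcn3 and Hcn4 the scarce ones. Over the 9 libraries Hcn2 averaged 50.8 ± 14.3 CPM per kilobase (SD, n = 9), Pex5l 49.6 ± 5.95, Hcn3 4.24 ± 0.984 and Hcn4 2.82 ± 1.51. Hcn2 and Pex5l did not differ beyond their spread: Hcn2 was above Pex5l in 5 of the 9 libraries and below it in 4. Hcn3 and Hcn4 also overlapped, with Hcn3 above Hcn4 in 8 libraries and below it in 1, SNL 2. The lowest Hcn2 value, 34.8 CPM per kilobase, was above the highest Hcn3 value, 5.79. Which isoforms were present was not analysed here, so this scale rests on 1 transcript length per gene.

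Among the 4 genes Hcn4 varied most from library to library and Pex5l least. The highest CPM over the lowest was 5.92 for Hcn4, 2.27 for Hcn2, 1.95 for Hcn3 and 1.42 for Pex5l. The fewest expected counts were 132 for Hcn4, in Sham 2, where the counting error is 8.70%, against a fitted biological coefficient of variation of 32.5%. For Pex5l the fewest counts were 3262 and that coefficient was 13.9%. The plot of levels by library shows the spread.

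**Figure D1:**
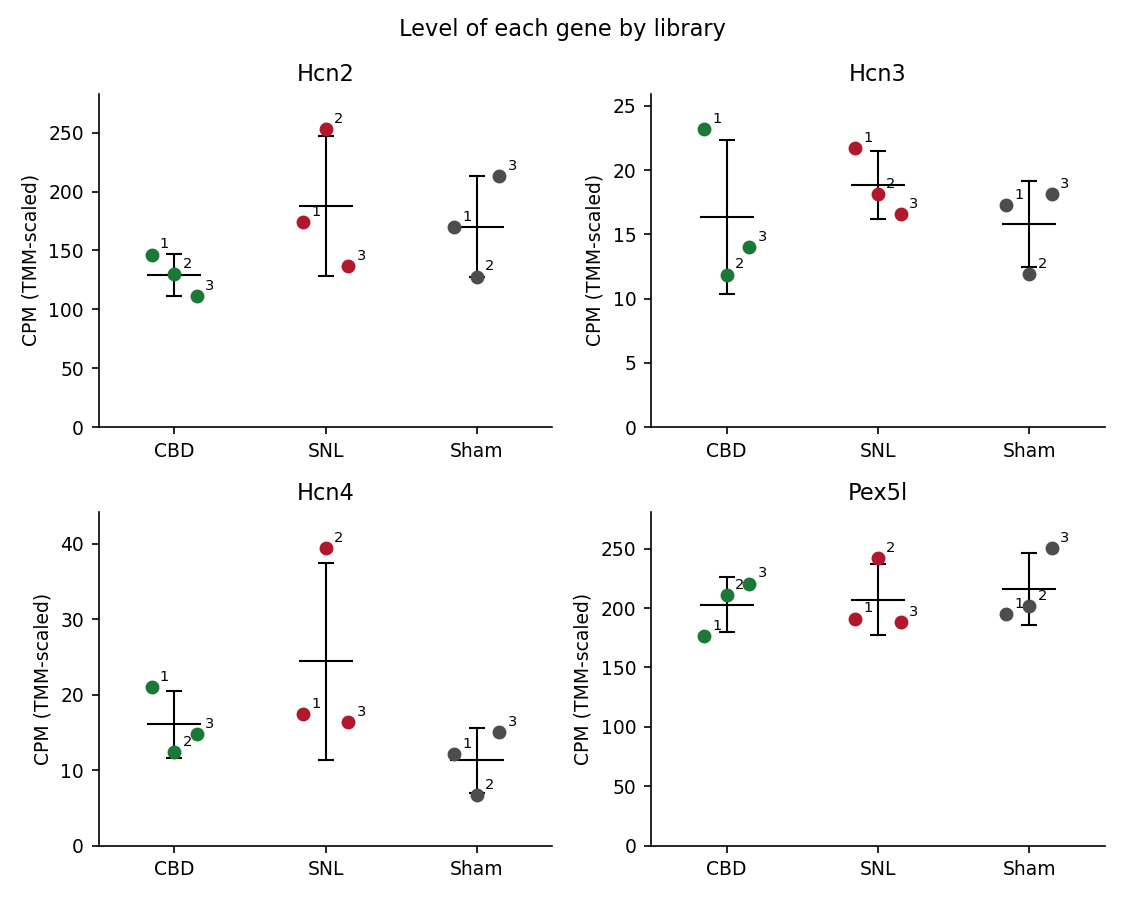
TMM-scaled CPM of Hcn2, Hcn3, Hcn4 and Pex5l (1 panel each) in the CBD, SNL and Sham groups. Points are libraries with their replicate number, and bars are the mean and SD of 3. SNL 2 is the highest library for Hcn2 (252.9 CPM) and Hcn4 (39.5 CPM), and Sham 2 is the lowest for Hcn4 (6.67 CPM).

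Hcn4, the channel that drives the heartbeat pacemaker and is strong in thalamus, was the member with the largest fitted difference. Its level was 17.5 CPM in SNL 1, 39.5 in SNL 2 and 16.4 in SNL 3, against 12.1 CPM in Sham 1, 6.67 in Sham 2 and 15.1 in Sham 3. Every SNL library was above every Sham library, SNL 2 by far and the others narrowly. The fitted log2 fold change for SNL against Sham was 1.11 (standard error, SE, 0.38, 95% interval 0.27 to 1.96), or 2.16-fold. By edgeR's quasi-likelihood test the unadjusted value was 0.0150, and after Benjamini-Hochberg adjustment over 17967 genes it did not pass 0.05 (adjusted p = 0.27). No gene passed in this comparison (0% of 17967), while 13.8% had an unadjusted p under 0.05, and 5.83% did so with a higher level in SNL. Groups did not overlap for 17.7% of all genes and were higher throughout in SNL for 7.94%. The DESeq2 Wald test called 363 genes and gave Hcn4 an adjusted p of 0.0726. Over the alternatives the adjusted p of Hcn4 ran from 0.0562, with no filter on low counts, to 0.774.

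The size of that difference rested on SNL 2. Without SNL 2 the log2 fold change of Hcn4 for SNL against Sham was 0.58 (adjusted p = 0.466 by edgeR), and without SNL 1, SNL 2 and CBD 1, which hold hypothalamic transcripts, it was 0.54 with SNL 3 as the only SNL library. SNL 2 also had the highest summed thalamus and habenula markers, 1923 CPM, and Sham 2, the lowest for Hcn4, the lowest sum, 481.6 CPM. All 15 of these markers had a higher mean in SNL than in Sham (median log2 fold change 1.13). Of them, 10 had an unadjusted p under 0.05, beside 5.83% of all genes higher at that level. Without SNL 2 the marker median was 0.70 with 5 at that level, and without the 3 libraries it was 0.39 with 2. Set against this sum, Hcn4 stood at 17.6, 20.5 and 19.8 CPM per 1000 marker CPM in SNL 1 to 3, and at 18.1, 13.9 and 20.5 in Sham 1 to 3. On that scale, chosen after the values were seen, the groups overlapped and differed by 0.16 on the log2 scale (exact permutation test, two-sided, p = 0.6, smallest possible 0.1). Summed endothelium and pericyte markers also lay higher in SNL (419.2 to 555.4 CPM) than in Sham (301.5 to 356.8 CPM). The part of either marker set in the Hcn4 values was not tested. In bulk tissue fewer cells of a type and less RNA per cell cannot be told apart.

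In CBD mice Hcn4 lay on average between the other groups. It stood at 21.1 CPM in CBD 1, 12.4 in CBD 2 and 14.8 in CBD 3, so the CBD libraries overlapped both the SNL and the Sham range. Hcn4 averaged 16.1 ± 4.45 CPM in CBD, 24.4 ± 13.1 CPM in SNL and 11.3 ± 4.27 CPM in Sham (SD, n = 3 each). The log2 fold change was -0.60 for CBD against SNL (SE 0.38, interval -1.44 to 0.23, edgeR adjusted p = 0.503) and 0.51 for CBD against Sham (SE 0.38, interval -0.34 to 1.36, adjusted p = 0.524). Without SNL 2 the first of these was -0.070. The second was 0.24 without Sham 2, 0.27 without CBD 1 and 0.78 without Sham 3. Per 1000 CPM of thalamus and habenula markers Hcn4 stood at 22.0, 15.6 and 13.9 in CBD 1 to 3. These values overlapped those of SNL and Sham, and the difference in mean log2 was -0.20 against SNL (exact permutation p = 0.4) and -0.037 against Sham (exact permutation p = 1).

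**Figure D2:**
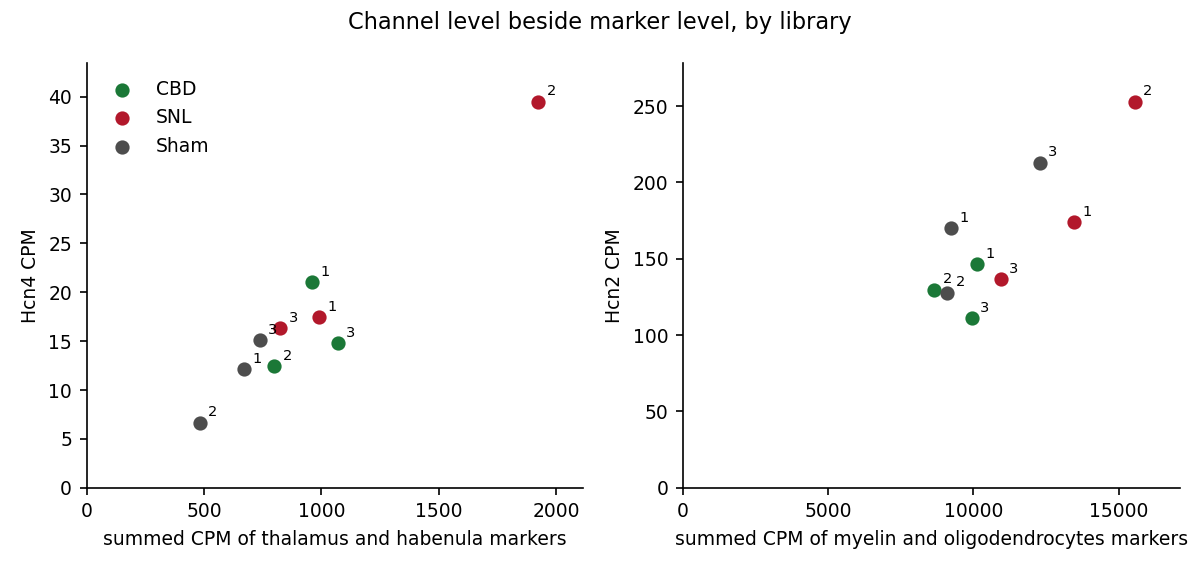
CPM of Hcn4 against the summed CPM of 15 thalamus and habenula markers (left) and CPM of Hcn2 against the summed CPM of 12 myelin and oligodendrocyte markers (right), 1 point per library with its replicate number, coloured by group. SNL 2 is at the upper right of both panels (1923 and 15550 marker CPM), and Sham 2 is lowest in the left one (481.6 marker CPM).

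Hcn2, the most abundant of the 3 channel genes, showed its largest difference between CBD and SNL. It stood at 146.5 CPM in CBD 1, 129.8 in CBD 2 and 111.2 in CBD 3, against 174 CPM in SNL 1, 252.9 in SNL 2 and 136.8 in SNL 3. CBD libraries were mostly lower, but CBD 1 was above SNL 3, so the groups overlapped. The log2 fold change was -0.54 (SE 0.24, interval -1.06 to -0.018), or 0.687-fold. By edgeR the unadjusted value was 0.0439 and the adjusted p was 0.355. Again no gene passed in CBD against SNL (0%), 13.7% had an unadjusted p under 0.05, and 7.2% did so with a lower level in CBD. Groups did not overlap for 19.3% of genes, with 10.1% lower throughout in CBD. DESeq2 called 150 genes there and gave Hcn2 an adjusted p of 0.207, and over the alternatives that p ran from 0.207 to 0.949.

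Hcn2 of CBD mice also lay below Sham on average, where the values were 170.1 CPM in Sham 1, 127.8 in Sham 2 and 213 in Sham 3. Hcn2 averaged 129.2 ± 17.7 CPM in CBD, 187.9 ± 59.3 CPM in SNL and 170.3 ± 42.6 CPM in Sham (SD, n = 3 each), with overlap between all groups. The log2 fold change was -0.40 for CBD against Sham (SE 0.24, interval -0.92 to 0.12, edgeR adjusted p = 0.416) and 0.14 for SNL against Sham (SE 0.23, interval -0.38 to 0.66, adjusted p = 0.817). In CBD against Sham, 0% of genes passed, 16.3% had an unadjusted p under 0.05 (7.41% higher and 8.87% lower in CBD), groups did not overlap for 21.7% (10.6% higher and 11.1% lower), and DESeq2 called 369. Without SNL 2 the value for SNL against Sham turned to -0.13, without Sham 2 it turned to -0.028, and without SNL 2 that for CBD against SNL was -0.27.

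Transcript GC content and myelin markers were set beside the Hcn2 values, and their part in them was not tested. Myelin markers were not alone in being lower in CBD than in SNL. So were 9 of 9 endothelium and pericyte, 8 of 9 microglial and 13 of 15 thalamus and habenula markers. Higher in CBD were 9 of 10 dentate and 7 of 8 choroid plexus markers. The longest protein-coding transcript of Hcn2 has 65.4% GC, above 99.6% of the tested genes, and fold changes over all genes followed GC content in CBD against SNL (Spearman rho -0.45 across genes) and in CBD against Sham (-0.57); in SNL against Sham rho was -0.15. These genes do not stand for replicates. In a fit with offsets for the trends on GC content and length, the log2 fold change of Hcn2 was -0.31 for CBD against SNL (edgeR adjusted p = 0.844) and 0.019 for CBD against Sham (adjusted p = 0.988), where the fit without offsets gave -0.54 and -0.40. For SNL against Sham the offsets gave 0.33, against 0.14 without them. For Hcn4, at 58.0% GC, the same offsets gave 1.20 for SNL against Sham, -0.50 for CBD against SNL and 0.70 for CBD against Sham.

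The summed CPM of 12 myelin and oligodendrocyte markers ran from 8657 to 10110 in CBD, from 10941 to 15550 in SNL and from 9095 to 12285 in Sham. All 12, among them Mbp and Mog, had a lower mean in CBD than in SNL (median log2 fold change -0.45), and none was at 0 in any library. Of the 12, 7 had an unadjusted p under 0.05, beside 7.2% of all genes lower at that level. Without SNL 2 there were 10 of 12 lower (median -0.29, 3 at that level), and without SNL 1, SNL 2 and CBD 1 there were 9 of 12 (median -0.19, 0 at that level). As background, oligodendrocytes are among the cells that express HCN2. Per 1000 CPM of these markers Hcn2 stood at 14.5, 15.0 and 11.2 in CBD 1 to 3, at 12.9, 16.3 and 12.5 in SNL 1 to 3, and at 18.4, 14.1 and 17.3 in Sham 1 to 3. On this scale, also chosen after the values were seen, all 3 groups overlapped, and the mean log2 difference was -0.038 for CBD against SNL (exact permutation p = 1), -0.29 for CBD against Sham (p = 0.3) and -0.26 for SNL against Sham (p = 0.2). Adjusted over the 6 tests on both marker scales, these p-values ran from 0.8 to 1.

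Hcn3, which forms channels that respond little to cyclic AMP, did not pass in any comparison. It stood at 23.2 CPM in CBD 1, 11.9 in CBD 2 and 14.02 in CBD 3, at 21.7 CPM (SNL 1), 18.1 (SNL 2) and 16.6 (SNL 3), and at 17.3 CPM in Sham 1, 11.9 in Sham 2 and 18.1 in Sham 3. All 3 groups overlapped, with CBD 1 the highest library and CBD 2 the lowest. The log2 fold change was 0.25 for SNL against Sham (interval -0.30 to 0.80), -0.20 for CBD against SNL (interval -0.75 to 0.35) and 0.052 for CBD against Sham (interval -0.50 to 0.60), with edgeR adjusted p-values of 0.68, 0.75 and 0.941. Single libraries moved these values. CBD against Sham turned to -0.29 without CBD 1 and to -0.11 without Sham 2. CBD against SNL was -0.55 without CBD 1 (edgeR adjusted p = 0.178) and -0.015 without CBD 2, and the adjusted p ran from 0.178 to 0.991 over the alternatives. SNL against Sham was 0.087 without Sham 2.

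Pex5l, the auxiliary subunit, was the steadiest member. It stood at 176.6 CPM in CBD 1, 210.8 in CBD 2 and 220.7 in CBD 3, at 191.2 CPM (SNL 1), 241.7 (SNL 2) and 188.2 (SNL 3), and at 195 CPM in Sham 1, 201.6 in Sham 2 and 250.8 in Sham 3. The groups overlapped throughout. The intervals of its fold were 0.768 to 1.2 for SNL against Sham, 0.783 to 1.22 for CBD against SNL and 0.752 to 1.17 for CBD against Sham. The edgeR adjusted p was 0.879, 0.943 and 0.786 in that order, and changes inside those intervals cannot be told from none here.

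**Figure D3:**
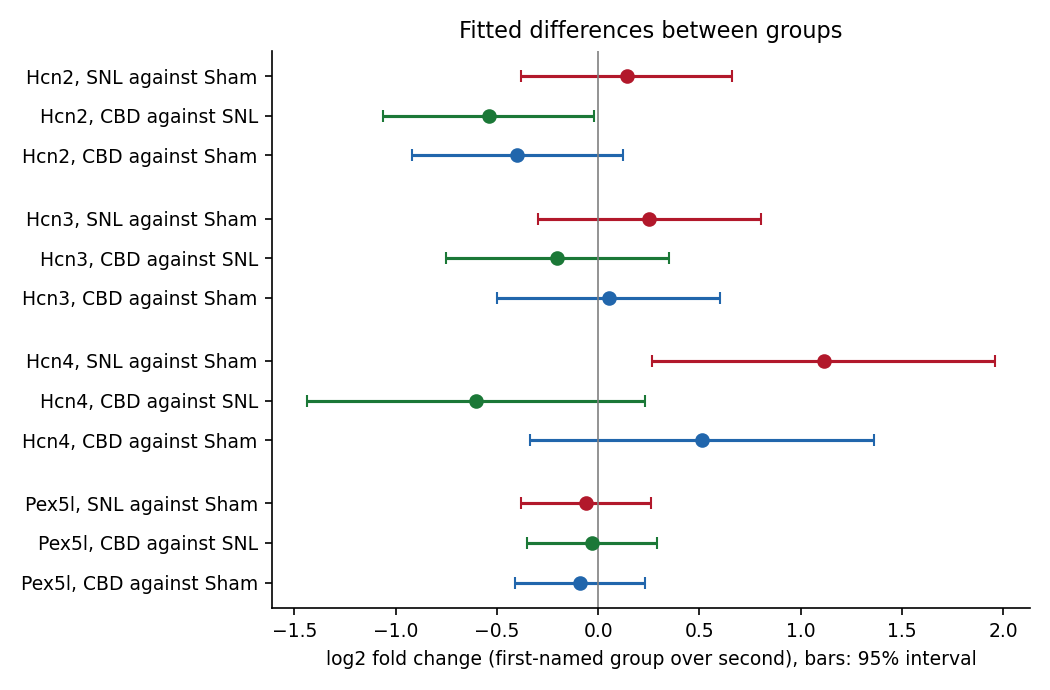
Fitted log2 fold change with its 95% interval for each gene in SNL against Sham, CBD against SNL and CBD against Sham, from edgeR over 9 libraries. Intervals leave out 0 for Hcn4 in SNL against Sham (0.27 to 1.96) and Hcn2 in CBD against SNL (-1.06 to -0.018), before any adjustment over genes.

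By count, 0 of the 4 genes passed the adjusted threshold in any of the 3 comparisons. At an unadjusted p under 0.05 there was 1 of 4 in SNL against Sham, Hcn4, 1 of 4 in CBD against SNL, Hcn2, and 0 of 4 in CBD against Sham, beside 13.8%, 13.7% and 16.3% of all genes. The 3 comparisons share their groups, so these counts are not independent.

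The ratio of Hcn4 to Hcn2 counts within a library, which is free of library size, was higher in both ligated groups than in Sham. It was 0.144, 0.0958 and 0.133 in CBD 1 to 3, 0.1003, 0.156 and 0.1196 in SNL 1 to 3, and 0.0714, 0.0522 and 0.0708 in Sham 1 to 3. Every library of both ligated groups was above every Sham library. Single genes lay higher throughout than in Sham for 7.94% of all genes in SNL and for 10.6% in CBD. The share of gene ratios that do so was not computed. The mean log2 ratio differed by 0.94 for SNL against Sham and by 0.93 for CBD against Sham, each with an exact two-sided permutation p of 0.1, the smallest that 3 against 3 allows, and an adjusted p of 0.3 over 6 tests. CBD and SNL differed by -0.0092 (exact permutation p = 1). Both comparisons share the Sham libraries.

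The ratio rested less on SNL 2 than the level of Hcn4 did. Without SNL 2 the difference for SNL against Sham was 0.77, and with each library left out in turn it ran from 0.77 to 1.09, and from 0.78 to 1.11 for CBD against Sham. GC and length offsets were not applied to the ratio. Fitted gene by gene, the log2 fold change for CBD against Sham was 0.70 for Hcn4 and 0.019 for Hcn2 with offsets. Without offsets these were 0.51 and -0.40. For SNL against Sham they were 1.20 and 0.33 with offsets, and 1.11 and 0.14 without. Per kilobase, Hcn4 made up between 4.46% and 6.25% of the 3 channel genes together in CBD, between 4.55% and 7.16% in SNL and between 2.47% and 3.35% in Sham. Hcn2 made up between 83.2% and 89.0% in CBD, between 86.3% and 87.8% in SNL and between 89.4% and 90.8% in Sham. The summed thalamus and habenula markers were also higher in every library of both ligated groups (at least 798.2 CPM) than in every Sham library (at most 737.4 CPM), and their part in the ratio was not tested.

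**Figure D4:**
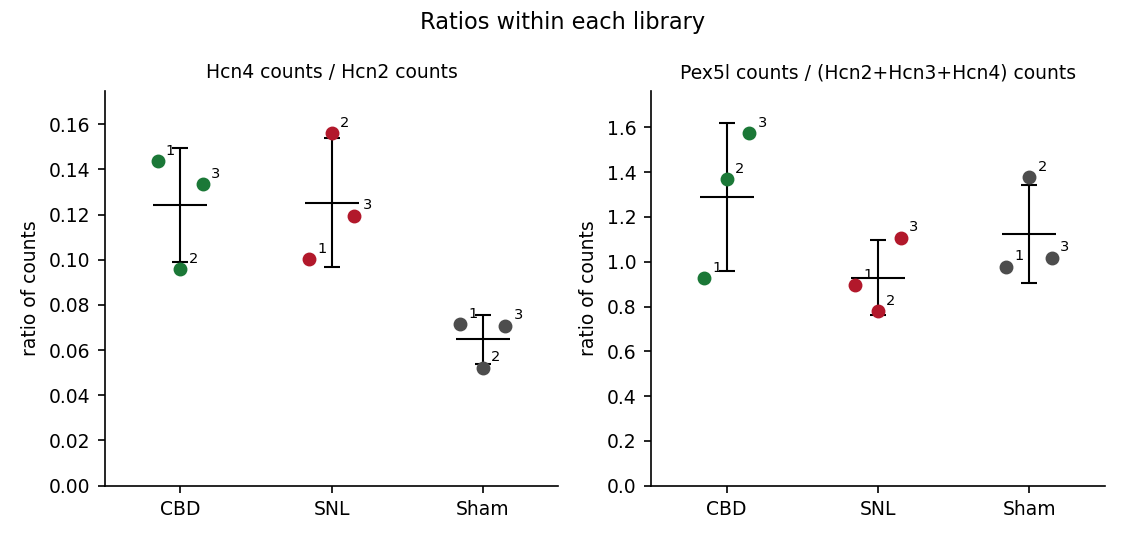
Ratio of Hcn4 to Hcn2 counts (left) and of Pex5l counts to the summed counts of Hcn2, Hcn3 and Hcn4 (right) in the CBD, SNL and Sham groups. Points are libraries with their replicate number, and bars are the mean and SD of 3. The left ratio is at least 0.0958 in ligated mice and at most 0.0714 in Sham, and the right ratio overlaps between all groups.

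The ratio of Pex5l to the summed counts of Hcn2, Hcn3 and Hcn4 overlapped between groups. It was 0.926, 1.37 and 1.58 in CBD 1 to 3, 0.897, 0.778 and 1.11 in SNL 1 to 3, and 0.978, 1.38 and 1.02 in Sham 1 to 3. The largest difference in mean log2 ratio was 0.46 for CBD against SNL (exact permutation p = 0.2, adjusted p = 0.4). By the same exact permutation test it was -0.28 for SNL against Sham (p = 0.3) and 0.18 for CBD against Sham (p = 0.7). Without SNL 1, SNL 2 and CBD 1 the value for SNL against Sham was -0.0036. Leaving out 1 library, it ran from -0.41 to -0.12 (without Sham 2) for SNL against Sham, from 0.018 (without CBD 3) to 0.40 (without CBD 1) for CBD against Sham, and from 0.29 (without CBD 3) to 0.68 for CBD against SNL.

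Genes whose log2 CPM followed a member most closely over the 9 libraries were sought among 11722 others with a mean of at least 5 CPM. Closest to Hcn2 were Itgb4, an integrin subunit (Pearson r = 0.99, n = 9), Adamts4, a matrix protease (0.96), and Pacs2, a sorting protein (0.96). Itgb4 was highest in SNL 2 (38.6 CPM) and lowest in CBD 3 (16.3 CPM), as Hcn2 was. Closest to Hcn4 were Eml1, a microtubule-binding protein (0.98), Elmo1, a regulator of Rac (0.97), and Sema6a, an axon guidance molecule (0.97). Closest to Hcn3 were Marcks (0.96), Ppp1r26 (0.95) and the long noncoding RNA Meg3 (0.95). For Pex5l the closest were the choline transporter gene Slc44a1 (0.85), Frmd4b (0.85) and Acss2 (0.83). These are the highest values among many genes over few libraries and are a description, with no test.

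A list of 14 genes drawn up as HCN partners and regulators, among them Pex5 and the repressor gene Rest, was tested in full. None passed the adjusted threshold. In SNL against Sham 9 of 14 were lower, with a median of -0.092 on the log2 scale (0.010 over all genes), and 2 had an unadjusted p under 0.05, both lower (7.96% of all genes were lower at that level). Without SNL 2 the median was -0.19 with 1 at that level, and without SNL 1, SNL 2 and CBD 1 there were 0. The 2 genes were Camk2a, the calcium/calmodulin kinase of the postsynaptic density, at 2130 ± 589 CPM in SNL and 3921 ± 1215 CPM in Sham (log2 fold change -0.88, SE 0.33), and Nedd4l, a ubiquitin ligase, at 102.6 ± 13.2 CPM in SNL and 150.5 ± 30.0 CPM in Sham (-0.55, SE 0.21; SD, n = 3 each), with edgeR adjusted p-values of 0.291 and 0.299. In CBD against SNL 0 of 14 had an unadjusted p under 0.05 (median -0.017). In CBD against Sham 3 did, all lower (median -0.16), beside 8.87% of all genes lower at that level. The smallest p was that of Kctd3, a partner of HCN3, at 87.8 ± 3.48 CPM in CBD and 108.2 ± 8.32 CPM in Sham (-0.30, SE 0.09, edgeR adjusted p = 0.213). With GC and length offsets 1 of the 14 was lower at an unadjusted p under 0.05 in CBD against Sham (median -0.11). Without SNL 1, SNL 2 and CBD 1 the median of that comparison was -0.13.

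Genes that make or break down cyclic AMP, the ligand of these channels, formed a list of 16. In SNL against Sham 12 were lower (median -0.23), with 4 lower and 1 higher at an unadjusted p under 0.05, beside 7.96% and 5.83% of all genes. Without SNL 2 these were 3 lower and 0 higher (median -0.28). In CBD against SNL 13 were higher (median 0.17, all genes -0.0011), with 3 higher at that level beside 6.5% of all genes. Adcy9, an adenylyl cyclase, had the smallest p. It averaged 55.6 ± 13.1 CPM in CBD, 35.0 ± 6.98 CPM in SNL and 78.4 ± 10.1 CPM in Sham, and no groups overlapped. Throughout lower values were found for 9.81% of all genes in SNL against Sham, and throughout higher ones for 9.18% in CBD against SNL. Its log2 fold change was -1.16 for SNL against Sham (SE 0.20, edgeR adjusted p = 0.193) and 0.67 for CBD against SNL (SE 0.20, adjusted p = 0.306). Pde10a, a phosphodiesterase, averaged 73.6 ± 9.05 CPM in CBD and 53.8 ± 10.7 CPM in SNL (0.45, SE 0.15, adjusted p = 0.309), and Pde4a, another, averaged 86.8 ± 5.44 CPM in CBD and 115.8 ± 16.0 CPM in Sham (-0.41, SE 0.12, adjusted p = 0.213).

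Potassium channels that hold the resting potential and the M-type channels, which oppose the HCN current in dendrites, formed a list of 15. In SNL against Sham 12 were lower (median -0.18), with 3 lower and 1 higher at an unadjusted p under 0.05, beside 7.96% and 5.83% of all genes. Kcnq5, an M-channel subunit, averaged 53.8 ± 9.72 CPM in CBD, 31.8 ± 13.7 CPM in SNL and 63.9 ± 14.7 CPM in Sham, with log2 fold changes of -1.01 for SNL against Sham (SE 0.31, edgeR adjusted p = 0.25) and 0.76 for CBD against SNL (SE 0.31, adjusted p = 0.338). Kcnj4, an inward rectifier, averaged 26.5 ± 6.65 CPM in CBD and 50.6 ± 18.6 CPM in Sham (-0.93, SE 0.32, adjusted p = 0.228). In CBD against Sham 2 of the 15 were lower at an unadjusted p under 0.05, beside 8.87% of all genes. With GC and length offsets 0 were at that level in CBD against Sham. In CBD against SNL 9 of 15 were higher (median 0.17), 2 of them at an unadjusted p under 0.05, beside 6.5% of all genes. With GC and length offsets that median was 0.077 and 0 were at that level.

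T-type calcium channels, which work with HCN channels in rhythmic firing of thalamic cells, were 3 genes. Cacna1h averaged 94.9 ± 21.1 CPM in CBD, 82.1 ± 10.2 CPM in SNL and 164.1 ± 43.2 CPM in Sham, and every library of both ligated groups was below every Sham library. Groups lay apart in that direction for 9.81% of all genes in SNL against Sham and for 11.1% in CBD against Sham. Its log2 fold change was -0.999 for SNL against Sham (SE 0.22, edgeR adjusted p = 0.21) and -0.79 for CBD against Sham (SE 0.22, adjusted p = 0.213). In CBD against Sham 1 of the 3 genes was lower at an unadjusted p under 0.05, and with GC and length offsets 0 were. The list median there was -0.27 without offsets and -0.052 with them. For SNL against Sham, 1 gene was lower and 1 higher at that level with offsets. Cacna1g, the main T-type channel of thalamic relay cells, averaged 155.6 ± 54.2 CPM in SNL and 122.7 ± 30.3 CPM in Sham (0.34, SE 0.26, adjusted p = 0.571). Cacna1i averaged 78.4 ± 4.47 CPM in SNL and 93.7 ± 7.04 CPM in Sham (-0.26, SE 0.13, adjusted p = 0.422). CA1 and dentate markers also differed in mean over the same libraries, with 8 of 8 CA1 markers (median -0.62) and 9 of 10 dentate markers (median -0.61) lower in SNL than in Sham, and their part in these list values was not tested.

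**Figure D5:**
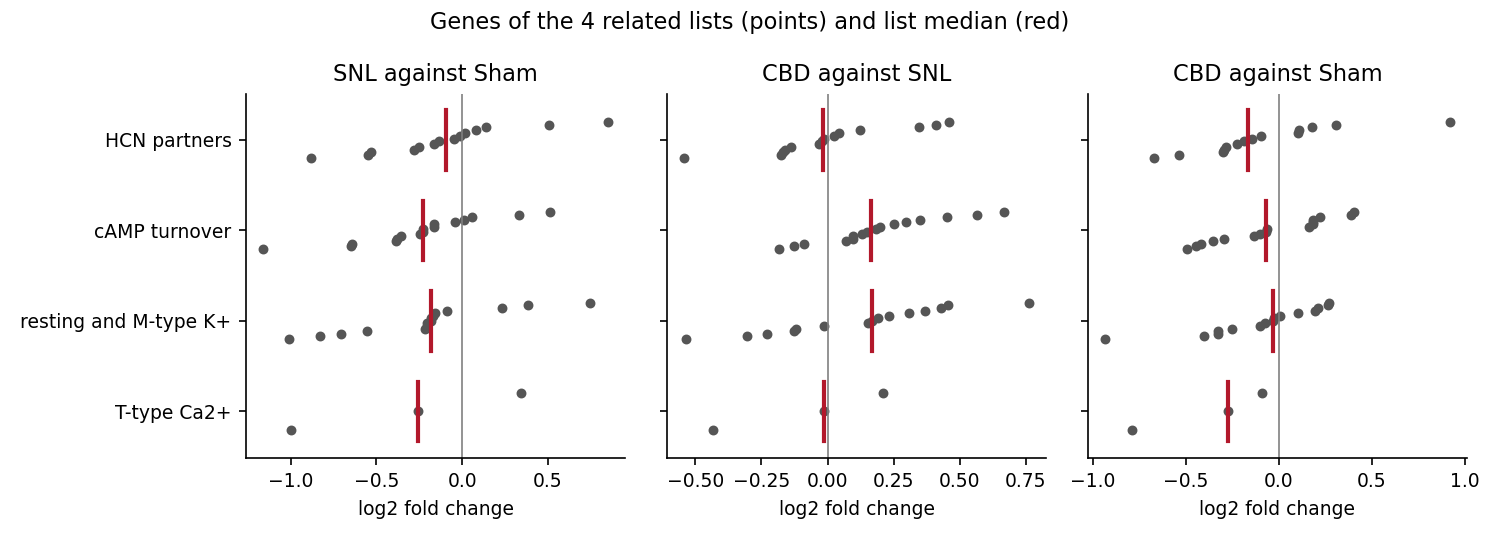
Log2 fold change of each gene of the 4 lists (HCN partners and regulators, cyclic AMP synthesis and breakdown, resting and M-type potassium channels, T-type calcium channels) in SNL against Sham, CBD against SNL and CBD against Sham. Points are genes and the red bar is the list median, which for the cyclic AMP genes is -0.23 in SNL against Sham and 0.17 in CBD against SNL.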

How the data were processed

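Messenger RNA of hippocampal tissue was sequenced in 9 libraries, from TRIzol extracts with a SMARTER kit, per the labels' protocols. The authors deposited expected counts, which are estimates per gene and library and need not be whole, and the submitters' processing notes name RSEM and GRCm39. What version, aligner, annotation or strand setting was used is not stated in the labels. Counts were rounded, genes were kept by filterByExpr (17967 of 57010) and scaled by TMM, and 1 edgeR (4.0.16, R 4.3.3) quasi-likelihood fit with a factor for 3 groups covered all 9 libraries, with Benjamini-Hochberg adjustment and a threshold of 0.05. SE is the log2 fold change over the square root of F. Ratios were tested by exact permutation. Length and GC content come from GENCODE vM21, and 98.2% of tested genes had them. The fit was tested on simulated counts with 1 common biological coefficient of variation (0.192) for all genes. That simulation held no difference in tissue between libraries, so it does not cover the marker differences seen here.

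The members and lists were chosen with earlier results of these data known. Named from each pathway list were the 3 genes with the smallest p in any comparison, all 3 for T-type channels, and, for likeness, the 3 highest Pearson r. Some genes that this rule names are not reported here. Marker lists without values above are given in the closing section. Alternatives were DESeq2 (1.42.0) size factors and Wald test, no count filter, a fit on the 6 libraries of a comparison, a block for the replicate number, GC and length offsets, and libraries left out. Values relative to marker sums were added after seeing the data.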

Additional observations from a re-analysis of the deposited data

How the results depend on the processing

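No call on Hcn2, Hcn3, Hcn4 or Pex5l changed under any alternative, since none of the 4 genes passed in any fit. The count of all genes called in SNL against Sham, 0 in the main test, was 253 with no filter, 363 by DESeq2, 2 with GC and length offsets, 1 without the 3 libraries with hypothalamic transcripts and from 0 to 8 leaving out 1 library. In CBD against SNL it was 1 with no filter, 150 by DESeq2, 2 without those 3 libraries and from 0 to 2 leaving out 1. In CBD against Sham it was 56 with no filter, 369 by DESeq2, 1 with only the 6 libraries compared, 20 without those 3 libraries and from 0 to 17 leaving out 1. The cause was not tested. Replicate numbers did not pair the libraries: the deviations of same-numbered libraries correlated from -0.27 to 0.19, with 2 of 9 pairs above 0.1, and 0 of 9 libraries correlated best with their own number. With the replicate block 0 genes passed in each comparison, and Hcn4 in SNL against Sham was 1.11 (adjusted p = 0.42).

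Some log2 fold changes turned sign, among them those of Hcn2 and Hcn4 in CBD against Sham (-0.40 and 0.51 in the main fit). For Hcn2 this was CBD against Sham with GC and length offsets (0.019, and 0.025 with the replicate block added), and SNL against Sham without the 3 libraries (-0.31), relative to myelin markers (-0.26), and leaving out 1 library (from -0.13 to 0.34). For Hcn3, CBD against Sham was -0.28 without the 3 libraries and from -0.29, without CBD 1, to 0.24 leaving out 1. For Pex5l, CBD against SNL was 0.20 and CBD against Sham 0.0079 without the 3 libraries. Leaving out 1 library gave Pex5l from -0.19 to 0.067 for SNL against Sham (highest without Sham 3), from -0.097 to 0.095 for CBD against SNL (highest without SNL 2) and from -0.16 to 0.030 for CBD against Sham (highest without Sham 3). Hcn4 in CBD against Sham was -0.037 relative to thalamus and habenula markers, a scale added after seeing the data. The ratio of Hcn4 to Hcn2 in CBD against SNL ran from -0.16 to 0.17 leaving out 1 library. Depth limits Hcn4 most, at 132 counts in Sham 2.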

Other observations

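Markers of other cell types in these hippocampal libraries were summed per library, as values beside the channel genes. Markers of endothelium and pericytes, 9 genes, ran from 383.2 to 453.4 CPM in CBD, from 419.2 to 555.4 in SNL and from 301.5 to 356.8 in Sham, so that every library of both ligated groups was above every Sham library. Single genes were higher throughout for 7.94% of all genes in SNL against Sham and for 10.6% in CBD against Sham. All 9 had a higher mean in SNL than in Sham (median log2 fold change 0.55). Of them, 7 had an unadjusted p under 0.05, beside 5.83% of all genes higher at that level. Without SNL 2 the median was 0.40 with 6 at that level, and without SNL 1, SNL 2 and CBD 1 it was 0.30. Markers of CA3 pyramidal and mossy cells, 8 genes, ran from 274.7 to 346.4 CPM in CBD, from 270.1 to 315.4 in SNL and from 308.8 to 472.7 in Sham. Interneuron markers, 10 genes, ran from 841.4 to 1339 CPM in CBD, from 968.2 to 1162 in SNL and from 855.3 to 1049 in Sham. Astrocyte markers, 9 genes, ran from 4582 to 5342 CPM in CBD, from 4187 to 4648 in SNL and from 4787 to 5336 in Sham. Microglial markers, 9 genes, ran from 320.6 to 377.9 CPM in CBD, from 350 to 435 in SNL and from 370.7 to 459.3 in Sham.

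Choroid plexus markers, 8 genes, ran from 1145 to 1887 CPM in CBD, from 263.2 to 2211 in SNL and from 140 to 1313 in Sham. Kcne2, a small accessory subunit of potassium and HCN channels, belongs to this list and to that of the HCN partners.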
